A study of Mus musculus with 2 samples.

Results

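Genes for splicing factors and heterogeneous nuclear ribonucleoproteins (hnRNPs) were examined in activated mouse macrophages. Members were all rows whose symbol began with Srsf, Hnrnp, Snrp, Sf3a, Sf3b, Prpf or U2af followed by a letter or digit. The rule uses names and no measured value, and it found 64 genes among 16263 in the tables. They comprised 10 Srsf, 18 Hnrnp, 12 Snrp, 3 Sf3a, 5 Sf3b, 13 Prpf and 3 U2af genes.

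The data were 2 RNA sequencing libraries, 1 of wild-type (WT) and 1 of SIRPα-KO cells, the latter with the genotype SIRPalpha-/-. The receptor SIRPα inhibits myeloid cells when it engages CD47 on another cell. Bone marrow cells of C57BL/6 mice were grown for 5 days with M-CSF and the resulting macrophages were treated for 6 h with IFNγ at 20 ng/ml and LPS at 100 ng/ml, with mCD47.ex present in both groups. Each library was made from the mixed cells of 5 mice, so a group is a single pooled measurement with no replicate error, no p-value can be given, and every difference below describes these 2 libraries. The labels give neither the age of the mice, nor the targeted allele, nor a group without stimulation or without mCD47.ex. The pools differed in sex-linked transcripts, with Xist at 47.54 FPKM in WT against 0.91 in SIRPα-KO and the Y-linked Eif2s3y listed at 0 in WT against 21.41 FPKM in SIRPα-KO, so genotype and sex cannot be told apart for any gene below.

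An intron is removed by the spliceosome, which is built on each transcript from small nuclear ribonucleoproteins (snRNPs) and many other proteins. U1 snRNP binds the start of the intron, U2AF marks its end, and U2 snRNP with the SF3A and SF3B complexes takes hold of the branch site before the U4/U6.U5 tri-snRNP joins. SR proteins (Srsf) bind exons and mostly favour their use, whereas hnRNP proteins coat nuclear RNA and often repress nearby sites. In macrophages, stimulation by LPS is known to alter the splicing of many transcripts.

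The unit was read as FPKM, a fragment count scaled to transcript length and sequencing depth, which allows levels to be compared between genes. A ratio below is the plain quotient of FPKM values, and a log2 ratio is the difference of log2(FPKM + 1), SIRPα-KO minus WT. A gene was kept if either library reached 1 FPKM, and it was called at a difference of at least 2-fold on the log2(FPKM + 1) scale. Of the 64 members 63 were kept. Snrpn, the neuronal and imprinted relative of the Sm protein B, was the exception, listed at 0 in WT against 0.09 FPKM in SIRPα-KO, the 1 member outside the limit. The kept member closest to the limit was Prpf40b, at 1.5 and 2.86 FPKM.

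None of the 63 kept members was called: 0 were higher and 0 lower by at least 2-fold, where 7.74% of all 10092 kept genes were called (3.43% higher and 4.31% lower). Among the 4630 genes that reached 10 FPKM in either library, 9.33% were called (4.04% higher and 5.29% lower), against 0 of 56 members at that level. Of those 56 members 38 had a log2 ratio above 0, where 58.2% of the 4630 genes did. The member differences had a median log2 ratio of 0.15 (mean 0.19, SD over genes 0.29, range -0.30 to 0.86), and all kept genes had a median of 0.06 (mean 0.03, SD over genes 0.61). With the SIRPα-KO values rescaled by the median ratio of all genes (median-of-ratios), the member median was 0.08 and that of all kept genes -0.003. Within 0.5 log2 units of equality lay 53 members (84.1%) and 73.1% of all kept genes.

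Below 2-fold, more members were higher in SIRPα-KO than lower. At a limit of 1.5-fold, 9 members were higher and 0 lower, where 10.9% of all kept genes were higher and 10.2% lower, so the share of members that were higher was near that of all genes. The 9 were Hnrnpa1, Srsf6, Srsf7, Srsf10, Srsf2, Snrpa, Srsf5, Prpf40b and Prpf4. A log2 ratio above 0 was found in 43 of 63 members and in 56.1% of all kept genes, and 39 members lay above the median of all kept genes. The count of 9 was 6 when the SIRPα-KO values were rescaled by the median ratio of all genes or by a trimmed mean. Srsf5, Prpf40b and Prpf4 then came under the limit, and the count of lower members stayed at 0. Of all kept genes 8.85% were then higher and 11.69% lower with the median ratio, and 8.92% and 11.61% with the trimmed mean. Summed over all 64 members the level was 2225.7 FPKM in WT against 2537.2 in SIRPα-KO, which is 0.501% and 0.585% of each library's total. In pooled cells, a change in cell makeup and a change of RNA per cell cannot be told apart.

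**Figure D1:**
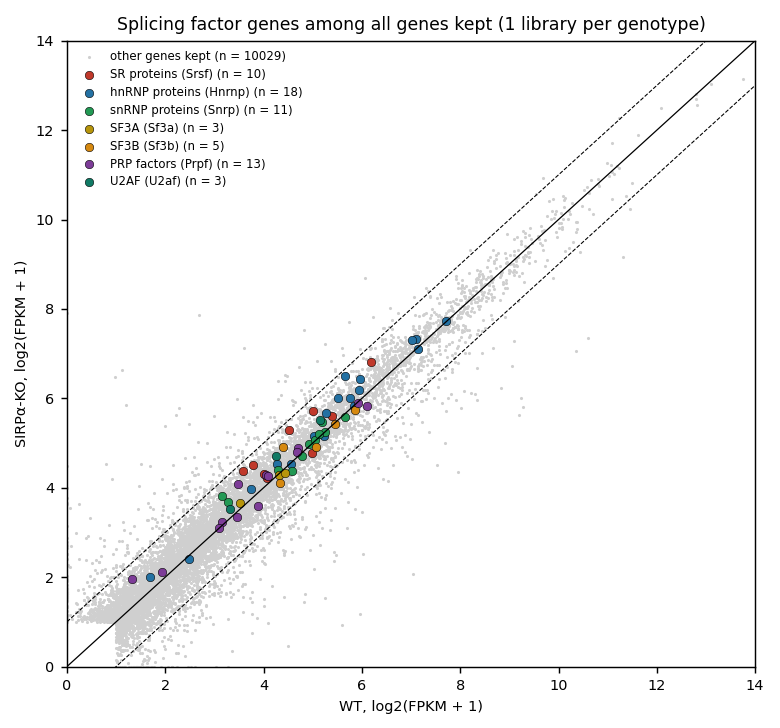
Level of each kept gene in WT (x axis) and SIRPα-KO (y axis), both as log2(FPKM + 1), with 1 point per gene and 1 library per genotype. The solid line marks equality and the dashed lines a 2-fold difference; all 63 coloured members lie between the dashed lines.

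The SR protein genes had the largest difference among the subfamilies, with a median log2 ratio of 0.47 over 10 genes. At least 1.5-fold higher in SIRPα-KO were 5 of the 10, where 10.9% of all kept genes were. With the values rescaled by the median ratio or the trimmed mean, 4 of the 10 were. The promoters of the 5 SR genes are shown because these genes differed in the same direction, together with that of Srsf9, the SR gene with the smallest ratio. The promoters of Hnrnpa1, the member with the largest log2 ratio, and of Sf3b1, close to equal, are given for comparison. Each run is the 150 bases before the annotated start, 5′ to 3′ on the gene's strand, from RefSeq on GRCm38.p6. Capitals mark matches on either strand to any of 8 motifs: the CCAAT box (CCAAT), the ETS core (CCGGAAG), the GC box (GGGCGG), the E-box (CACGTG), the TATA box (TATAAA), the palindromic NRF1 core, a κB site and an ISRE core. None of the last 3 occurs in the 8 windows shown.
Srsf6: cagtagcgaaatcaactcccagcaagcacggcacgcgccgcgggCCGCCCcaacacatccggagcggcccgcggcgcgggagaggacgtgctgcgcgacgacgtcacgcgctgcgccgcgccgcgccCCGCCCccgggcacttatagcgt
Srsf7: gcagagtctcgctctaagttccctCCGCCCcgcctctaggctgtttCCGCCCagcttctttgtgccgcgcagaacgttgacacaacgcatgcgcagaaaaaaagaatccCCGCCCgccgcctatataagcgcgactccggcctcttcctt
Srsf10: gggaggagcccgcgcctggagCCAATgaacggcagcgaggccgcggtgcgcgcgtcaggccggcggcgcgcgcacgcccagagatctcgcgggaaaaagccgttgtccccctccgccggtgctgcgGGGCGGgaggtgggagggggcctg
Srsf2: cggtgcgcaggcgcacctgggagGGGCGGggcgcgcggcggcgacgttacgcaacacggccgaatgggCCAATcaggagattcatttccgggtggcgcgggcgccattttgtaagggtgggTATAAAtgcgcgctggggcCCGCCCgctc
Srsf5: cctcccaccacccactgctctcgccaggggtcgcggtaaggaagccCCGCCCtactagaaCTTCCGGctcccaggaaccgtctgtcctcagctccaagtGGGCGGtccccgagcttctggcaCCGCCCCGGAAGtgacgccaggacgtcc
Srsf9: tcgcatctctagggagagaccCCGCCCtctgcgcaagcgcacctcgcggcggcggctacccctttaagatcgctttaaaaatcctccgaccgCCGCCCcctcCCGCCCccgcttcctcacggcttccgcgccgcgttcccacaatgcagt
Hnrnpa1: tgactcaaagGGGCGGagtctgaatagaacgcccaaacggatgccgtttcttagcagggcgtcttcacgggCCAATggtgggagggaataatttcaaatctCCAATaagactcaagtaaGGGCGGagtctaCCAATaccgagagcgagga
Sf3b1: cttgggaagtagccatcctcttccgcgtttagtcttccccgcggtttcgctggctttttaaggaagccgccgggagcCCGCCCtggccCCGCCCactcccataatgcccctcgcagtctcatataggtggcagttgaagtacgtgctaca

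The windows lie at chr2:162931358-162931507, plus strand (Srsf6), chr17:80207306-80207455, minus strand (Srsf7), chr4:135855921-135856070, plus strand (Srsf10), chr11:116853095-116853244, minus strand (Srsf2), chr12:80945349-80945498, plus strand (Srsf5), chr5:115327027-115327176, plus strand (Srsf9), chr15:103240247-103240396, plus strand (Hnrnpa1) and chr1:55027479-55027628, minus strand (Sf3b1). All 8 contain GC boxes, Hnrnpa1 has 3 CCAAT boxes, and Srsf5 has 2 ETS cores, 1 of which overlaps a GC box. Srsf9 has 3 GC boxes, as Srsf7 and Srsf5 do, and no match to another motif. A CCAAT box is present in Srsf10 and Srsf2, and a TATA box in Srsf2. The windows were chosen by the ratios of their genes, and no relation of motif to ratio was tested.

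The promoter table held 56 of the 64 members. Over the starts listed for a gene, a GC box was present in 9 of 10 Srsf genes and in 32 of 56 members (57.1%), against 52.7% of 12592 other genes of the tables. The CCAAT box was present in 27 members (48.2%, other genes 30.9%) and the ETS core in 13 (23.2%, other genes 11%). The E-box was found in 6 members (10.7%, other genes 6.7%), the TATA box in 3 (5.4%, other genes 5.4%), the NRF1 core in 1 (1.8%, other genes 1.4%), the ISRE core in 1 (1.8%, other genes 1.8%) and the κB site in 0 (other genes 0.2%). Of the 10 Srsf genes 3 had the CCAAT box, 2 the ETS core, 2 the TATA box and 1 the NRF1 core. The E-box, the κB site and the ISRE core were found in 0 of the 10. The median GC content of the windows was 61.9% for members, 67.3% for Srsf genes and 61.3% for other genes. The 12592 other genes include genes that were not kept, while 63 of the 64 members were kept. For 64 of the 77 starts listed for members, the bases that follow were found near the start of an annotated transcript. A match is a description of the letters, not a binding site.

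Among the SR proteins, Srsf6 had the largest log2 ratio. It was at 10.91 FPKM in WT against 19.81 in SIRPα-KO, 1.82-fold higher (log2 ratio 0.81). At the estimated depth these values stand for about 423 and 769 reads. Srsf7, which carries a zinc knuckle beside its RNA-binding domain, was at 21.98 and 38.44 FPKM, 1.75-fold higher. Srsf10, a splicing repressor when dephosphorylated, was at 12.71 and 21.82 FPKM, 1.72-fold higher.

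Srsf2, also known as SC35 and a classical marker of nuclear speckles, was at 31.19 FPKM in WT against 51.59 in SIRPα-KO, 1.65-fold higher. Srsf5 was the most abundant SR gene in both libraries, at 71.74 and 111.46 FPKM, 1.55-fold higher, and 25.6% of its 50-base words also occur in another annotated gene, the pseudogene Gm12966. These 5 SR genes lay between the percentiles 90.6 and 94.3 of all kept genes by log2 ratio.

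The other 5 SR genes were closer to equal. Srsf1, the founding member that acts on both constitutive and alternative exons, was at 15.74 FPKM in WT against 17.52 in SIRPα-KO (log2 ratio 0.15). Srsf3, the shortest SR protein and an adaptor for mRNA export, was at 41.22 and 47.55 FPKM, Srsf4 at 15.03 and 18.95 FPKM, and Srsf11 at 24.97 and 26.83 FPKM. Srsf9 was the only SR gene lower in SIRPα-KO, at 30.60 and 26.24 FPKM (log2 ratio -0.21). Several SR genes contain a conserved exon that, when included, sends the transcript to nonsense-mediated decay. A single value per gene does not separate such transcripts from productive ones, so splicing itself was not measured here.

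**Figure D2:**
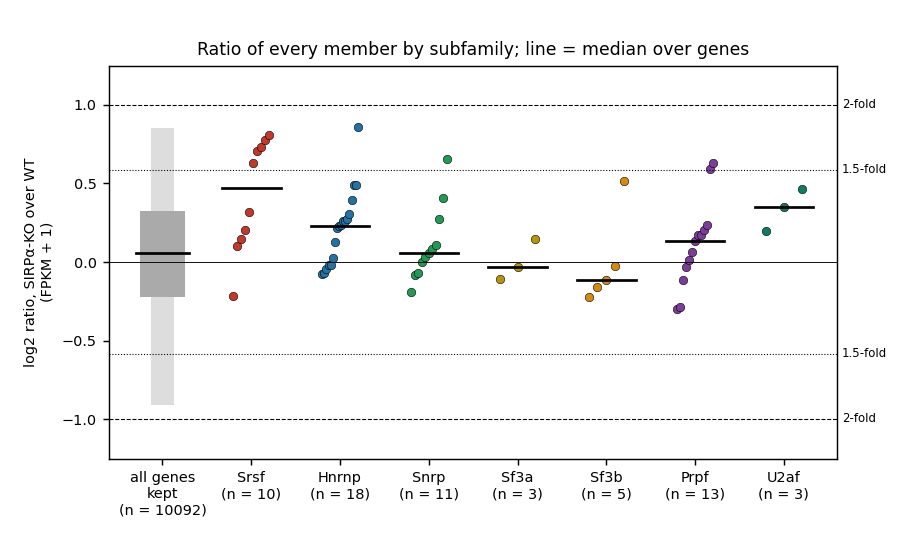
Log2 ratio of SIRPα-KO over WT (y axis, on FPKM + 1) for each kept member, grouped by subfamily (x axis), with 1 point per gene and the subfamily median as a black line; the grey bars show the central 50% (dark) and 90% (light) of all 10092 kept genes. The Srsf median is at 0.47 and the Sf3b median at -0.11, and no point passes the dashed 2-fold lines.

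The hnRNP genes were the most abundant subfamily and had a median log2 ratio of 0.23 over 18 genes, with 13 above 0 and 5 below. Hnrnpk, a protein with KH domains that binds C-rich RNA, was the most abundant member in both libraries, at 208.36 FPKM in WT against 212.17 in SIRPα-KO (log2 ratio 0.03, or -0.05 with the median-of-ratios scaling). Next in level were Hnrnpa2b1, at 139.91 and 135.63 FPKM, Hnrnpf, at 136.28 and 159.77 FPKM, and Hnrnph2, at 129.03 and 156.02 FPKM. Words shared with other annotated genes made up 38.3% for Hnrnpk, 40.5% for Hnrnpf, 30.9% for Hnrnph2 and 1.8% for Hnrnpa2b1. The levels of Hnrnpk, Hnrnpf and Hnrnph2, and their places in the order, are therefore uncertain. Hnrnpf and Hnrnph2 bind runs of G in RNA, as does Hnrnph1, which was at 31.58 and 34.58 FPKM. Hnrnph2 is the 1 member on the X chromosome.

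Hnrnpa1, a repressor of many exons, had the largest log2 ratio of all members, 0.86. It was at 49.31 FPKM in WT against 90.19 in SIRPα-KO, 1.83-fold higher. The value is uncertain, because 47.7% of its 50-base words also occur in other annotated genes, chiefly in the processed pseudogene Gm10052, which has a row of its own in the tables. Gm10052 was at 74.33 and 115.78 FPKM, above Hnrnpa1 itself in each library, and the sum of both was 123.64 and 205.97 FPKM, 1.67-fold higher in SIRPα-KO. Both rows were higher in SIRPα-KO, so their sum had to be higher and does not show which gene the reads came from. How shared reads were assigned is not given in the sources used here.

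Hnrnpa3 is uncertain for the same reason, since it shares 21.8% of its words with the gene Gm6793, which also has its own row. Hnrnpa3 was at 60.10 FPKM in WT against 72.30 in SIRPα-KO, Gm6793 at 104.38 and 146.86 FPKM, and their sum at 164.48 and 219.16 FPKM, 1.33-fold higher. Hnrnpm was at 56.18 and 55.46 FPKM and shares 28.5% of its words with the gene March2, which was at 10.78 and 12.13 FPKM.

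Of the remaining hnRNP genes, Hnrnpc, which binds U-rich tracts and helps to retain RNA in the nucleus, was at 44.52 FPKM in WT against 62.91 in SIRPα-KO, and Hnrnpab at 61.03 and 86.00 FPKM, each 1.41-fold higher. Hnrnpul2 was at 37.46 and 49.61 FPKM, Hnrnpu, a nuclear scaffold protein, at 53.35 and 63.06 FPKM, and Hnrnpa0 at 18.40 and 22.25 FPKM. Hnrnpd, also known as AUF1 and a decay factor for mRNAs with AU-rich elements, was at 12.46 and 14.67 FPKM. Hnrnpl, which binds CA repeats, was at 22.47 and 22.13 FPKM, and Hnrnpul1 at 36.45 and 34.75 FPKM. The least abundant were Hnrnpr, at 2.22 and 2.98 FPKM, and Hnrnph3, at 4.62 and 4.34 FPKM, the latter with the smallest log2 ratio of the subfamily, -0.07.

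U2AF, which marks the end of the intron, was higher in SIRPα-KO for 3 of 3 genes, with a median log2 ratio of 0.35. U2af2, the subunit that binds the polypyrimidine tract, was at 34.63 FPKM in WT against 44.40 in SIRPα-KO. U2af1, the subunit that reads the AG at the intron's end, was at 17.95 and 25.15 FPKM (log2 ratio 0.47), and its relative U2af1l4 at 8.97 and 10.45 FPKM. All 3 share sequence with other annotated genes, at 29.1% of words for U2af2, 53.5% for U2af1 and 97.2% for U2af1l4.

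The Sf3a and Sf3b genes encode subunits of the SF3A and SF3B complexes, which bind the branch site region with U2 snRNP. Their median log2 ratios were -0.03 over 3 genes and -0.11 over 5 genes (-0.10 and -0.18 with the trimmed-mean scaling). Sf3b1, the subunit that clasps the branch site helix, was the most abundant at 56.81 FPKM in WT against 52.48 in SIRPα-KO, followed by Sf3b2 at 42.65 and 41.85 FPKM. Sf3b4 was at 32.43 and 28.97 FPKM and shares 49.3% of its words with a pseudogene, and Sf3b5 was at 19.08 and 16.21 FPKM (log2 ratio -0.22). Sf3b3 stood apart from the other 4 Sf3b genes of the rule, at 19.92 and 28.91 FPKM, 1.45-fold higher. Sf3a1, Sf3a2 and Sf3a3 were at 10.43, 18.81 and 20.55 FPKM in WT and at 11.63, 18.38 and 19.04 FPKM in SIRPα-KO.

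Over the 11 kept Snrp genes the median log2 ratio was 0.06 (-0.01 with the median-of-ratios scaling). The 7 Sm proteins, which form a ring around the snRNAs, ran from a log2 ratio of -0.19 for Snrpg (22.77 FPKM in WT, 19.81 FPKM in SIRPα-KO) to 0.28 for Snrpe (35.36 and 43.06 FPKM). Snrpb, the most abundant, was at 49.25 and 46.96 FPKM. Snrpd1 was at 18.64 and 20.18 FPKM, Snrpd2 at 32.02 and 32.76 FPKM, Snrpd3 at 33.99 and 36.08 FPKM and Snrpf at 26.52 and 25.02 FPKM. The ring is assembled in fixed proportions, and the WT levels of its 7 genes lay between 18.64 and 49.25 FPKM.

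Proteins specific to U1 or U2 snRNP differed more among themselves. Snrpa, protein A of U1, was at 7.88 FPKM in WT against 12.98 in SIRPα-KO, 1.65-fold higher, which stands for about 115 and 189 reads. Snrpc, protein C of U1, was at 37.11 and 37.05 FPKM. For U2, Snrpa1 was at 8.63 and 11.78 FPKM and Snrpb2 at 29.25 and 30.54 FPKM.

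The Prpf genes, named after yeast mutants in pre-mRNA processing, had a median log2 ratio of 0.13 over 13 genes (0.06 with a minimum of 5 FPKM), with 9 above 0 and 4 below. Prpf4, a protein of the tri-snRNP, was at 10.19 FPKM in WT against 15.89 in SIRPα-KO, 1.56-fold higher. Its tri-snRNP partners were Prpf3 at 7.48 and 7.56 FPKM, Prpf31 at 15.56 and 18.50 FPKM, Prpf6 at 13.83 and 11.05 FPKM, and Prpf8, the core of the catalytic centre, at 24.51 and 26.94 FPKM. Prpf6 had the lowest log2 ratio of all members, -0.30, so genes of the same particle lay on both sides of equality.

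Prpf38a, needed for activation of the spliceosome, was at 67.88 FPKM in WT against 55.55 in SIRPα-KO (log2 ratio -0.29), and its relative Prpf38b at 59.52 and 58.14 FPKM. The kinase Prpf4b was at 16.12 and 18.29 FPKM, the U1-associated factor Prpf39 at 9.98 and 9.15 FPKM, and the second-step factor Prpf18 at 7.96 and 8.36 FPKM. Prpf19, a ubiquitin ligase of the active spliceosome, was at 2.83 and 3.32 FPKM. Prpf40b had the largest plain ratio of the kept members, 1.91-fold, but at 1.5 and 2.86 FPKM it rests on about 55 and 104 reads. Its log2 ratio was 0.63, and 0.89 with a pseudocount of 0.1.

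**Figure D3:**
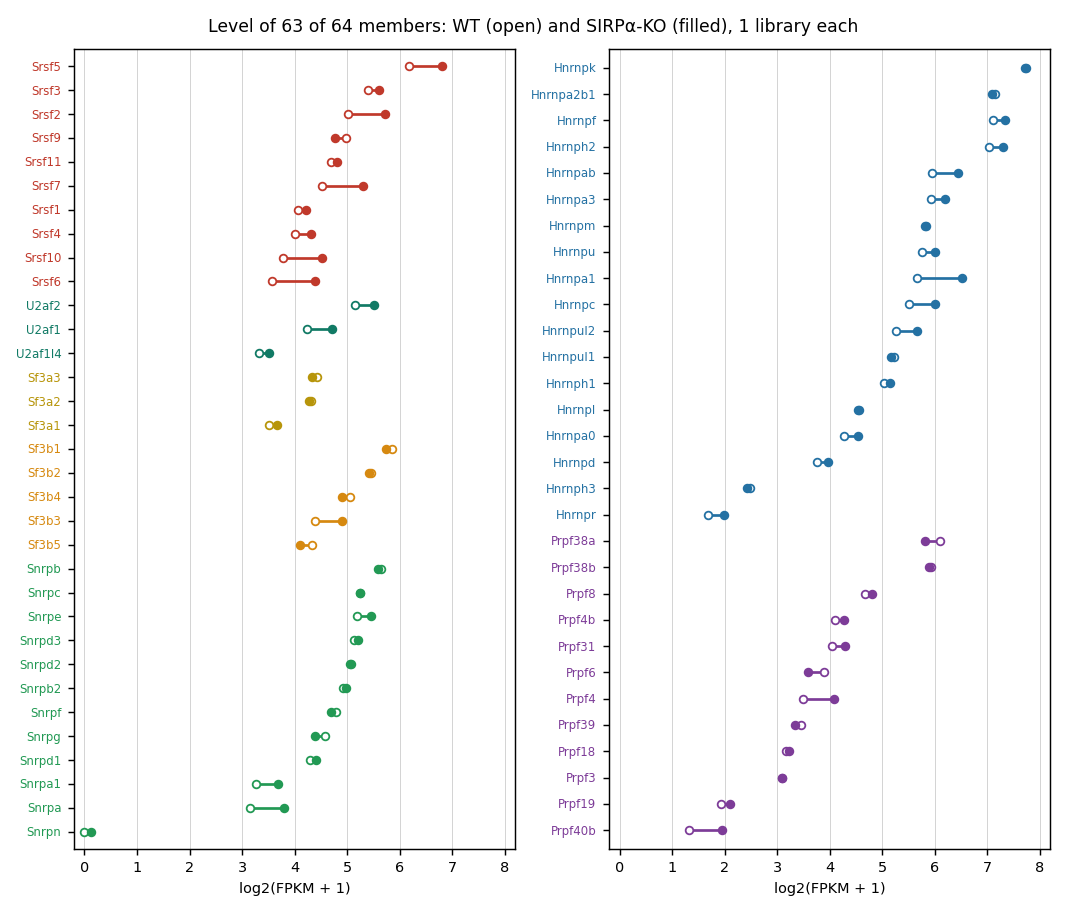
Level of 63 of the 64 members as log2(FPKM + 1) on the x axis, 1 gene per row, coloured by subfamily and ordered by WT level within it; open circles are WT, filled circles SIRPα-KO, 1 library each. Hnrnpk is highest in both libraries, and the longest lines belong to Hnrnpa1 and the SR genes Srsf6, Srsf7, Srsf10 and Srsf2.

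The order of the members by level was similar in both libraries, with a rank correlation of 0.97 over 64 genes, given as a description because the genes share their libraries. Hnrnpk had rank 1 and Srsf5 rank 5 in each. Across the 63 kept members the log2 ratio had rank correlations of -0.08 with the GC content of the transcripts, 0.09 with their length and -0.01 with mean level, again as descriptions. In the annotation deposited with the tables, 41 of 64 members (64.1%) carry a term that names splicing, against 0.77% of the other genes.

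Genes of the splicing pathway outside the symbol rule also had a median above that of all kept genes. In 7 lists with 151 genes in the tables, 145 were kept, of which 1 was called higher and 1 lower. Of all kept genes 3.43% were called higher and 4.31% lower. The median log2 ratio of the 145 list genes was 0.19. The 125 other genes with a splicing term in the deposited annotation had 113 kept, 2 called higher and 0 lower, and a median of 0.21. The list of spliceosomal helicases and the Prp19 complex had the lowest median, 0.03 over 25 genes, with 0 called and its most abundant gene Cwc15 at 114.39 FPKM in WT against 116.63 in SIRPα-KO.

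Other Sm-like and U snRNP proteins had a median of 0.19 over 21 genes, with 0 called. Their most abundant gene was Snrnp70, the U1 protein that SR proteins contact, at 54.95 FPKM in WT against 69.46 in SIRPα-KO. Lsm2, named after its values were seen, was at 3.07 and 6.61 FPKM. Its plain ratio was 2.15, but its log2 ratio of 0.90 was under the limit. U2 and branch site factors had a median of 0.19 over 15 genes, with 0 called and the helicase Ddx39b at 51.57 and 62.98 FPKM. SR-related proteins and the kinases of SR proteins had a median of 0.21 over 25 kept genes, with 0 called and Srrm2, a scaffold of nuclear speckles, at 75.48 and 103.25 FPKM. The kinases that phosphorylate SR proteins were added after their values were seen. Clk1 was at 30.87 and 32.86 FPKM, Clk2 at 8.94 and 9.01 FPKM, Clk3 at 22.13 and 25.43 FPKM and Clk4 at 11.34 and 7.99 FPKM. Srpk1 was at 6.35 and 7.61 FPKM and Srpk2 at 2.28 and 3.43 FPKM. Of these 6 kinases Clk4 alone was lower in SIRPα-KO on the deposited values, while Clk2 was close to equal (log2 ratio 0.01).

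Other RNA-binding regulators of splicing had a median of 0.24 over 37 kept genes, with 0 called. Rbm3, a cold-induced RNA-binding protein, was the most abundant, at 137.30 FPKM in WT against 174.90 in SIRPα-KO. The muscleblind genes, named after their values were seen, went opposite ways: Mbnl1 was at 64.26 and 118.82 FPKM and Mbnl2 at 90.81 and 56.43 FPKM. Hnrpdl and Hnrpll, hnRNP genes that the symbol rule misses because the tables use older symbols, were added after their values were seen, at 22.36 and 25.76 FPKM and at 8.02 and 5.47 FPKM.

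The called gene that was higher was Nxf1, the export receptor for spliced mRNA, at 73.38 FPKM in WT against 226.13 in SIRPα-KO, 3.08-fold higher. It belongs to the list of exon junction complex, decay and export genes, whose median was 0.18 over 17 genes. Alyref, which recruits Nxf1 to mRNA and was named after its values were seen, was at 8.82 and 14.83 FPKM. The called gene that was lower was Malat1, a noncoding RNA of nuclear speckles, at 83.70 and 32.93 FPKM. The other 6 of 7 genes of the speckle and paraspeckle list were above 0, among them Nono, the most abundant, at 242.37 and 275.88 FPKM and Neat1, the RNA of paraspeckles, at 123.03 and 145.70 FPKM.

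**Figure D4:**
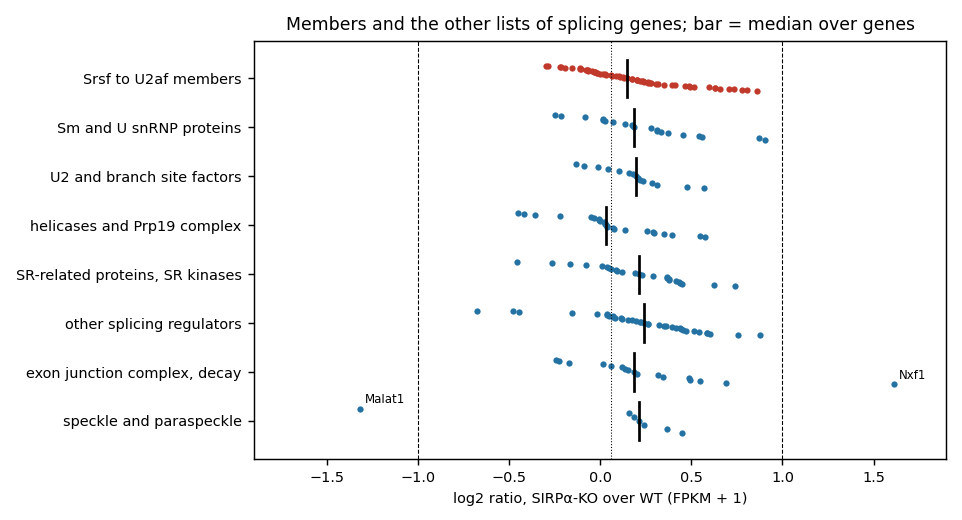
Log2 ratio of SIRPα-KO over WT (x axis, on FPKM + 1) for the members (top row, red) and for 7 lists of other splicing genes (blue), with 1 point per kept gene and the list median as a bar; dashed lines mark 2-fold and the dotted line the median of all kept genes. Nxf1 and Malat1 are the only labelled genes, since no other point passes 2-fold on the scale shown.

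Checks of the libraries were as follows. Sirpa, the targeted gene, was at 153.87 FPKM in WT against 71.47 in SIRPα-KO, so the library labelled SIRPα-KO still held its transcript, and Cd47 was at 142.21 and 188.15 FPKM. The macrophage marker list was well expressed in both, with all 11 genes at or above 109.80 FPKM in each library and 1 of 11 called lower and 0 higher. Lyz2, at 7106.27 and 7207.70 FPKM, makes up most of the summed level of 13399.6 and 13435.7 FPKM, while Csf1r was called lower, at 247.59 and 109.80 FPKM, and Cd14 was at 290.19 and 163.84 FPKM. Markers of other cells differed between the libraries. The 11 neutrophil and precursor genes summed to 534.2 and 280.0 FPKM, with 5 of 10 kept genes called lower. The 9 dendritic genes summed to 57.0 and 190.2 FPKM, with 3 of 7 kept genes called higher and 1 lower. Among all kept genes 3.43% were called higher and 4.31% lower. The dendritic sum follows Ccl22, at 11.19 and 139.11 FPKM, and Itgax, at 27.73 and 12.08 FPKM, was the gene called lower. The 12 proliferation genes summed to 151.8 and 144.5 FPKM, most of it from Pcna at 106.15 and 108.57 FPKM. Of their 10 kept genes 1 was called lower, Mcm6 at 8.62 and 1.08 FPKM, and 0 higher, with Mki67 at 3.49 and 6.70 FPKM. The 6 B cell genes summed to 46.3 and 44.5 FPKM, most of it from Blnk at 40.41 and 42.07 FPKM. None of the 4 kept B cell genes was called, with Cd79a at 1.69 and 0.62 FPKM and Cd79b at 2.41 and 0.96 FPKM. The 8 T and NK cell genes summed to 16.3 and 15 FPKM. Most of it came from Cd4 at 7.88 and 4.96 FPKM and Cd3d at 6.29 and 6.79 FPKM. Cd8a was at 2.12 and 2.78 FPKM, and Cd3g was listed at 0 in both libraries. The 8 stromal genes summed to 25.6 and 34.8 FPKM, and 0 genes were called in either list. Marker genes named beside their sums were chosen after their values were seen. The part of these cell types, and of the sex of the mice, in the differences of splicing genes was not tested.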

How the data were processed

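RNA of pooled macrophages was sequenced in 2 libraries, 1 per genotype. The authors deposited 1 table per library with 1 value per gene; the deposited values were taken as FPKM, inferred from them because the headers name no unit. Low values of genes with 1 transcript step with transcript length: 69.8% of 925 WT values and 68.2% of 910 SIRPα-KO values lay within 0.15 of whole reads (30.3% and 31.2% with shuffled lengths), at an estimated 11000000 reads per library. The submitters' processing notes name mm9, R 3.3.3 and DESeq2; for aligner, counting and strand, nothing is given in the sources used here. FPKM depends on the transcript length chosen and on how reads of near-identical copies were assigned.

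A pseudocount of 1 FPKM, a minimum of 1 FPKM in at least 1 library and a 2-fold limit were used, with no test. Transcript sequences came from GENCODE release 21 for mouse, and promoters and chromosomes from RefSeq (GRCm38.p6); all 64 members matched by gene number. Words of 50 bases measured sequence shared with other genes. At least 20% of words were shared in 16 members, among them Srsf3 (26.3%), Snrpc (26.7%) and Snrpe (28.4%). The rule for named genes took 3 markers (Srsf1, Hnrnpa1, Sf3b1), called members, the most abundant and the extreme members of each subfamily, and members near the limit or at 0; from other lists, called genes and the most abundant gene. The remaining members are given so that each is accounted for, except 1 that enters the counts and medians and is not reported here by name. Members and lists were chosen with earlier results of these data known. The computation was tested on simulated data (python 3.11.15, pandas 2.3.3).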

Additional observations from a re-analysis of the deposited data

How the results depend on the processing

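No paired analysis was possible because each genotype has 1 library, and no replicate could be left out. The count of members called at 2-fold stayed at 0 in each direction with a pseudocount of 0.1. Of all 10092 kept genes 589 were then called higher and 677 lower. The count was also 0 with the median-of-ratios scaling (301 of 10051 genes higher, 482 lower) and the trimmed-mean scaling (302 higher, 481 lower). A wider symbol rule with 78 kept genes gave 0 as well, and leaving out the filter adds only Snrpn. A minimum of 5 FPKM, a 3-fold limit or leaving out members can only remove calls. The count of 0 was therefore fixed in advance with these settings, the last of which left out the 16 members that share at least 20% of their words. With a 1.5-fold limit 9 members were higher and 0 lower. That count, 9 of 63 members, was examined after seeing the data. It was 8 of 59 with a minimum of 5 FPKM and 7 of 48 without members sharing words. With either scaling it was 6 of 63, and with the wider rule 10 of 78. The share of all kept genes that were higher was 10.94% in the main setting and 11.8% with a minimum of 5 FPKM. Leaving out members sharing words or widening the rule does not change the 10.94%. It was 8.85% with the median-of-ratios and 8.92% with the trimmed-mean scaling. In the 10 SR genes 5 became 4 with either scaling. Without members sharing words Srsf3 and Srsf5 leave the set, and 4 of the SR genes left were higher. The SR median was then 0.51, against 0.47 in the main setting. The scalings multiply the SIRPα-KO values by 0.95; with the median-of-ratios scaling the median was 0.08 for all members, 0.40 for Srsf, 0.16 for Hnrnp, 0.28 for U2af, 0.06 for Prpf, -0.10 for Sf3a and -0.18 for Sf3b. They turned the sign of the Snrp median (-0.01) and of Hnrnpk (-0.05 with either); of 21 named members 20 kept their sign and all 63 alternative values stayed under 2-fold. Without members sharing words no U2af gene is left, so that median has no such value. The share of the FPKM sum held by members was 1.17 times the WT share, 1.15 times without the 50 most abundant genes of either library and 1.13 times without members sharing words. Single libraries give the differences no error, and low genes such as Prpf40b are also limited by counting.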
